A study of Mus musculus musculus x Mus musculus castaneus with 8 samples.

Results

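This account is about 10 genes for secreted cytokines, growth factors and a cytokine receptor in mouse tail fibroblasts. The deposited table of raw counts that takes both alleles together holds 24421 genes. The 10 genes were chosen by name, with earlier results of these data known. Il6, Lif and Il11 encode cytokines that signal through the shared receptor chain gp130, Csf1 the growth factor of macrophages, Il33 a cytokine of the IL-1 family and Il1rl1 its receptor ST2, Areg, Ereg and Hbegf ligands of the EGF receptor family, and Hgf the ligand of the receptor MET. Of the 10 genes, 6 passed the filter on low counts (Lif, Il11, Csf1, Il1rl1, Ereg and Hbegf), as did 12643 genes in all. The tables list Il6, Areg, Ereg and Hgf on chromosome 5, Lif on 11, Il11 on 7, Csf1 on 3, Il33 on 19, Il1rl1 on 1 and Hbegf on 18.

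The fibroblasts came from the tail of a female F1 animal, which carries a Mus musculus musculus (mus) and a Mus musculus castaneus (cas) copy of each autosome. All grew for 72 h on 15 cm plates, and all received the same volume of the solvent DMSO with or without drug, added 24 h after plating. The first of 4 groups received 5azadC (5-aza-2'-deoxycytidine, a cytidine analog that blocks the maintenance of DNA methylation). The second received VX680, an inhibitor of the Aurora kinases of mitosis. The third received both drugs (5azadC+VX680) and the fourth, untreated (WT in the sample titles), DMSO alone. Each group has 2 libraries of total RNA. The drug doses are not given in the sources used here. The labels do not say that the libraries of a group came from separate cultures, so the spread behind each p-value may be a technical one. By the series title, the study concerned reactivation of the silent X chromosome, and none of the 10 genes is listed on the X.

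Cytokines of the gp130 family bind a private receptor, bring gp130 chains together and switch on JAK kinases and the factor STAT3. IL-33 binds ST2 and the IL-1 receptor accessory protein and signals through MyD88 to NF-kB. Ligands of the EGF receptor family are made as membrane proteins and released by ADAM metalloproteases, and HGF is cut by serine proteases before it can activate MET. Fibroblasts are a textbook source of IL-6, LIF, CSF1 and HGF. Many cytokine mRNAs are short-lived because proteins such as TTP (encoded by Zfp36) bind AU-rich elements in their 3′ untranslated regions.

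The AU-rich stretches of these mRNAs are shown because they are the best known sequence feature that cytokine and growth factor transcripts share, and the choice of the genes did not use them. The pentamer ATTTA and the nonamer TTATTTATT, which holds a pentamer within it, were searched on the transcript strand of the GENCODE M21 transcripts (build GRCm38). Each line below gives 30 bases, 5′ to 3′ in cDNA letters, with every ATTTA in capitals, from the stretch of the 3′ untranslated region that holds a nonamer and the most pentamers.
Lif: agaagcaaaggggcctttATTTAttATTTA
Il11: ctttaaaaccagatcttATTTATTTATTTA
Areg: aATTTATTTAatATTTAagtgttATTTAtt
Ereg: tgtatgagttgttgtcagtttttATTTAtt
The stretches start at base 2699 after the stop codon in Lif, 32 in Il11, 192 in Areg and 3420 in Ereg. The nonamer was present in 4 of the 10 genes, with 5 copies in Il11, 2 in Lif and 1 each in Areg and Ereg, and in 7.58% of the 11690 tested genes with a 3′ untranslated region. In tested genes whose region had a similar length (within 25%), the nonamer occurred in 7.17% for Il11, 13.4% for Lif, 1.84% for Areg and 15.8% for Ereg. Every one of the 10 genes held at least 1 pentamer, as did 67.4% of the tested genes. Pentamers were densest in Areg, with 4 in 253 bases, and Il6, with 6 in 427 bases, and least dense in Il1rl1, with 3 in 3246 bases. A match describes letters only and is not evidence that a protein binds there.

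The libraries held between 6908503 and 11169532 reads in genes, and 26.1% to 26.9% of these were assigned to an allele. Replicates lay farther apart in some groups than in others: 544 of the 12643 tested genes differed at least 2-fold between the 5azadC libraries, 157 between the VX680 libraries, 247 between the 5azadC+VX680 libraries and 246 between the untreated libraries. All 10 fibroblast markers were detected in all groups, and their summed level was 18391 to 22742 CPM (counts scaled to library size with TMM factors) with 5azadC, 13713 to 14248 with VX680 and 11516 to 11739 with both drugs, against 31427 to 35495 in untreated cells. The collagen genes make up most of this sum in untreated cells but not with 5azadC+VX680. Col1a1 had 5972 and 8067 CPM with 5azadC, 3361 and 3520 with VX680 and 1929 and 1840 with 5azadC+VX680, against 12429 and 15550 in untreated cells. Vim had 6223 and 6057, 5774 and 5842, and 6924 and 6690 CPM in the same 3 groups, against 3558 and 4072 in untreated cells. Thy1 was likewise higher in all 6 treated libraries. Pdgfra, Pdgfrb, Dcn and Lum instead fell like the collagens, and each was lower in all 6 treated libraries. Pdgfra had 32.6 and 34.4 CPM with 5azadC+VX680, against 342 and 305 in untreated cells. S100a4 was higher with VX680 and with 5azadC+VX680, while its 5azadC libraries overlapped the untreated ones. The 10 macrophage and leukocyte markers summed to 20.3 to 25.4 CPM with 5azadC, 24.1 to 26.2 with VX680 and 25.7 to 32.3 with 5azadC+VX680. Their sum was 21.8 to 23.7 CPM in untreated cells, and Adgre1 and Cd3e had 0 reads in all groups. Within this sum Cd68 was higher in all 6 treated libraries, with 22.1 and 13.7 CPM with 5azadC+VX680 against 5.17 and 5.13 in untreated cells. Lyz2 was lower in all 6, with 2.39 and 5.11 CPM with 5azadC+VX680 against 13.7 and 10.3 in untreated cells. Summed endothelial markers (6 genes) were 1.90 to 2.47, 7.27 to 9.19 and 4.69 to 5.34 CPM in the same 3 treated groups, against 1.17 to 1.18 in untreated cells. Adipocyte markers (5 genes), of which Fabp4 alone reached 1 CPM, were at 3.34 to 3.43, 13.3 to 16.2 and 19.8 to 20.6 CPM, against 0.586 to 2.09 in untreated cells. Keratinocyte markers (6 genes) stayed within 1.36 to 3.73 CPM and mast cell markers (5 genes) within 0 to 0.422 CPM over all libraries, with Kit, Cpa3 and Fcer1a at 0 reads in all groups. The part of the falling fibroblast sum and of the rising endothelial and adipocyte sums in the results below was not tested.

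Against untreated cells, 5 of the 6 tested genes were higher in every treated group, with edgeR adjusted p under 0.05: Lif, Csf1, Il1rl1, Ereg and Hbegf. The sixth, Il11, did not pass the test in any, and none of the 6 was lower. Over all tested genes the share called higher was 22.6% with 5azadC, 23.8% with VX680 and 28.4% with 5azadC+VX680, and the share called lower 19.6%, 22.4% and 27.3%. All 5 genes also changed at least 2-fold in each, and the share of all tested genes called higher with that minimum was 7.99% with 5azadC, 8.77% with VX680 and 12.4% with 5azadC+VX680. The median log2 fold change of the 6 genes was 1.97 with 5azadC, 2.60 with VX680 and 2.91 with 5azadC+VX680, where the medians of all tested genes were 0.00, 0.01 and 0.01. These medians leave out the 4 genes under the filter, and Lif and Il11 passed that filter through the treated groups, not through untreated libraries alone. The 3 comparisons share the 2 untreated libraries, so their likeness is partly built in. In these bulk libraries, more transcript per cell and more cells that make the transcript cannot be told apart.

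**Figure D1:**
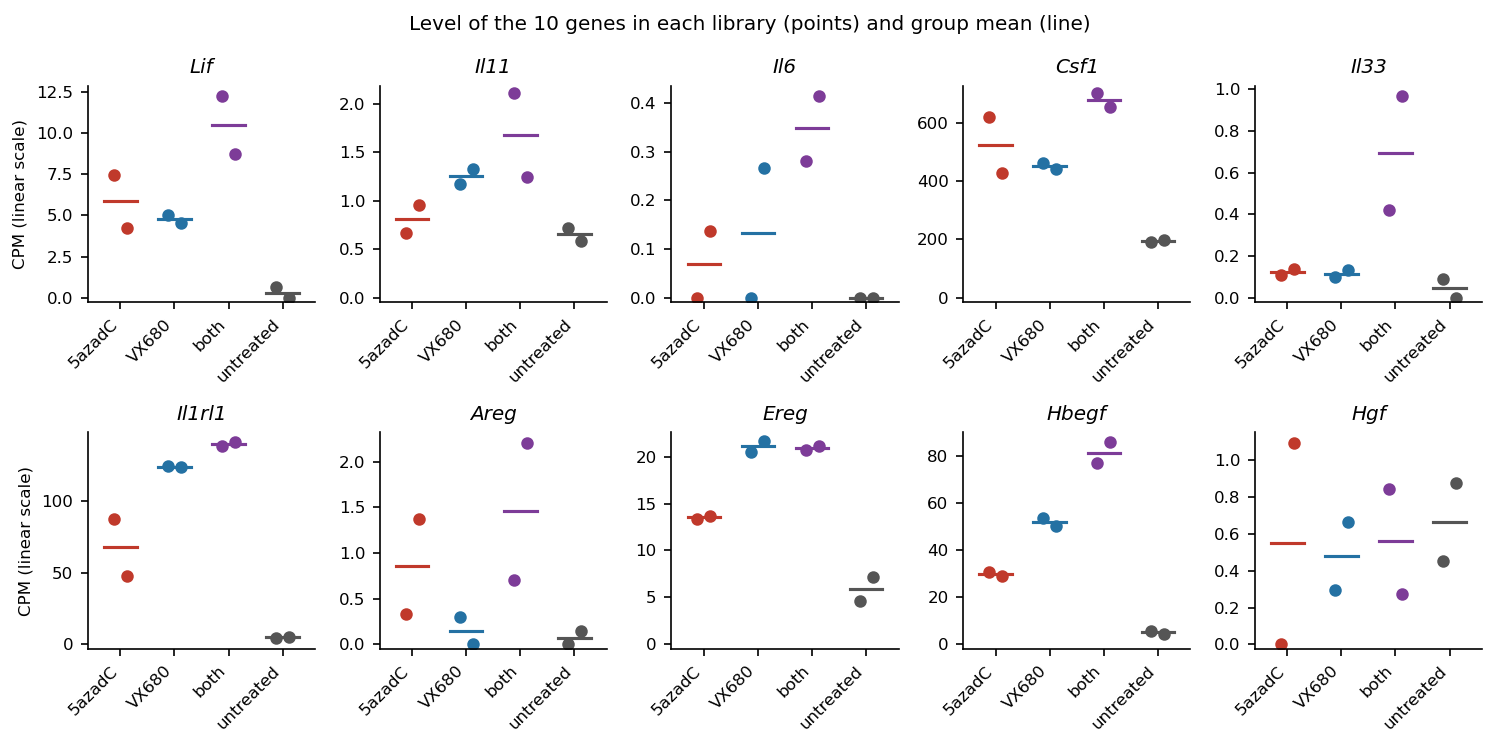
Level of each of the 10 genes in CPM (linear axis, from 0, on its own scale per gene) in the 8 libraries. Points are libraries, lines are group means of 2 libraries, and "both" is 5azadC+VX680. Lif, Csf1, Il1rl1, Ereg and Hbegf lie above both untreated libraries in all 6 treated libraries. The share of all tested genes separated in this way was not counted, so this describes the points only. The axes of Il6, Il33, Areg and Hgf span a handful of reads.

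Lif, which keeps mouse embryonic stem cells undifferentiated and acts in tissue inflammation, was nearly silent in untreated cells. It had 7.47 and 4.25 CPM in the 5azadC libraries (67 and 31 reads), 5.01 and 4.53 CPM in the VX680 libraries (51 and 34 reads) and 12.2 and 8.69 CPM in the 5azadC+VX680 libraries (87 and 63 reads), against 0.635 and 0 CPM in the untreated libraries (7 and 0 reads). Every treated library was far above both untreated ones, and the 5azadC+VX680 libraries were above all single-drug libraries. The log2 fold change was 3.89 ± 0.76 (SE) with 5azadC, 3.59 ± 0.76 with VX680 and 4.71 ± 0.75 with 5azadC+VX680 (edgeR adjusted p = 0.000186, 0.000342 and 1.18e-05 in that order). The sizes rest on 7 reads in 1 untreated library: without that library the fitted values are 8.54, 8.24 and 9.37, and without the other 3.18, 2.87 and 4.00, each still past the threshold.

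Il11, a gp130 cytokine tied to fibrosis and bone, stayed close to 1 CPM. It had 0.669 and 0.960 CPM with 5azadC, 1.18 and 1.33 CPM with VX680 and 2.11 and 1.24 CPM with 5azadC+VX680, against 0.725 and 0.586 CPM in untreated cells. The VX680 and 5azadC+VX680 libraries lay above the untreated ones, while those of 5azadC overlapped them. The change was 1.31 ± 0.62 on the log2 scale with 5azadC+VX680, with an interval from -0.04 to 2.65 (edgeR adjusted p = 0.0818), 0.89 ± 0.63 with VX680 (0.258) and 0.26 ± 0.68 with 5azadC (0.782). With 71 reads over all 8 libraries, these intervals leave room for both no change and a several-fold one.

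Il6, the founding gp130 cytokine, was not detected in untreated cells, where 0 reads in 2 libraries allow a level of up to 0.168 CPM (counting error only, as for all limits and intervals on reads). It had 0 and 1 read with 5azadC, 0 and 2 with VX680 and 2 and 3 with 5azadC+VX680. With 5azadC+VX680 the ratio to untreated cells had a 95% counting interval that starts at 1.14 and has no upper bound. At this depth a difference for the single drugs was not detectable.

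Csf1, which drives the growth and survival of macrophages, was by far the most expressed of the 10. It had 618 and 427 CPM with 5azadC, 462 and 442 CPM with VX680 and 699.6 and 653 CPM with 5azadC+VX680, against 189.8 and 198 CPM in untreated cells. No treated library came near the untreated pair, and the 5azadC libraries were 1.45-fold apart. The rise was 2.69-fold with 5azadC (95% interval 2.21 to 3.29), 2.33-fold with VX680 (1.91 to 2.85) and 3.49-fold with 5azadC+VX680 (2.86 to 4.25), with edgeR adjusted p of 2.86e-06, 8.63e-06 and 1.45e-07. Among tested genes, ranked per kilobase of gene length, Csf1 stood at the 96.4th, 95.9th and 97.5th percentile in the same 3 groups, against the 87.5th in untreated cells. The receptor gene Csf1r was under the filter on low counts in these cells.

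Il1rl1, the receptor for IL-33, was low in untreated cells and moderately expressed in every treated group. Its libraries had 87.7 and 47.9 CPM with 5azadC, 124 and 124 CPM with VX680 and 138 and 141 CPM with 5azadC+VX680, against 4.62 and 5.42 CPM in untreated cells. The VX680 and 5azadC+VX680 pairs were tight and the 5azadC pair 1.83-fold apart, yet the lower 5azadC library was still several times the higher untreated one. The fold was 13.8 with 5azadC (8.93 to 21.2), 25 with VX680 (16.3 to 38.3) and 28.1 with 5azadC+VX680 (18.4 to 43.1), and the edgeR adjusted p was 1.82e-07, 1.72e-08 and 5.61e-09. Per kilobase it ranked at the 53.7th percentile of tested genes with 5azadC, the 72.1st with VX680 and the 75.0th with 5azadC+VX680, against the 10.5th in untreated cells. The counts are per gene and do not separate the membrane receptor from its soluble form.

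Il33 itself, a nuclear cytokine released from damaged cells, was hardly detected beside its receptor. It had 1 and 1 read with 5azadC, 1 and 1 with VX680 and 3 and 7 with 5azadC+VX680, against 1 and 0 in untreated cells. The ratio of 5azadC+VX680 to untreated was 12.4 with a counting interval from 1.77 to 540, and the intervals for 5azadC (0.114 to 130) and VX680 (0.105 to 119) included 1.

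Hbegf, the heparin-binding ligand of EGFR and ERBB4 and in primates the receptor of diphtheria toxin, rose in all treated groups, most with 5azadC+VX680 and least with 5azadC. It had 30.7 and 29.2 CPM with 5azadC, 54.0 and 50.5 CPM with VX680 and 77.2 and 86.1 CPM with 5azadC+VX680, against 5.89 and 4.25 CPM in untreated cells. The 4 groups did not overlap in any pair. The fold was 5.73 with 5azadC (4.39 to 7.48), 10.0 with VX680 (7.72 to 13.0) and 15.6 with 5azadC+VX680 (12.1 to 20.2), with edgeR adjusted p of 1.45e-07, 7.96e-09 and 7.36e-10.

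Ereg encodes epiregulin, another ligand of EGFR and ERBB4. The 5azadC libraries had 13.4 and 13.7 CPM, the VX680 libraries 20.5 and 21.7 CPM and the 5azadC+VX680 libraries 20.7 and 21.1 CPM, against 4.62 and 7.18 CPM in untreated cells. The VX680 and 5azadC+VX680 libraries overlapped, and the 5azadC libraries lay between them and the untreated ones. The fold was 2.35 with 5azadC (1.67 to 3.31), 3.67 with VX680 (2.63 to 5.11) and 3.63 with 5azadC+VX680 (2.60 to 5.08), with edgeR adjusted p of 0.000699, 1.43e-05 and 9.71e-06. In GENCODE M21 an antisense gene, Gm19610, overlaps its exons, and whether the authors counted by strand is not given in the sources used here.

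Areg encodes amphiregulin and had 3 and 10 reads with 5azadC, 3 and 0 with VX680 and 5 and 16 with 5azadC+VX680, against 0 and 1 in untreated cells. The ratio to untreated was 14.3 with 5azadC (counting interval 2.14 to 606) and 26.1 with 5azadC+VX680 (4.20 to 1080), while that of VX680 was 3.03 (0.243 to 159). Replicates differed 4.10-fold with 5azadC and 3.14-fold with 5azadC+VX680, and the single untreated read leaves the size of either ratio almost unbounded above.

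Hgf, known as a product of fibroblasts, had few reads in any group. There were 0 and 8 reads with 5azadC, 3 and 5 with VX680 and 6 and 2 with 5azadC+VX680, against 5 and 6 in untreated cells. The ratios to untreated were 0.798 (0.279 to 2.18), 0.734 (0.256 to 2.0) and 0.904 (0.316 to 2.47), so that a change of up to about the interval's bounds in either direction was not detectable at this depth. Its exons overlap those of Gm43489 on the same strand in GENCODE M21.

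**Figure D2:**
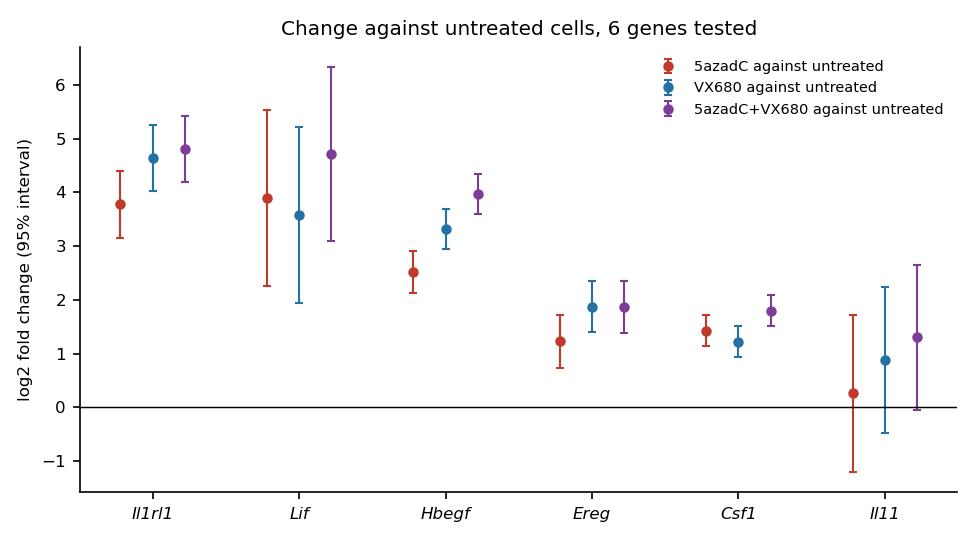
Log2 fold change against untreated cells (vertical axis) of the 6 tested genes for 5azadC, VX680 and 5azadC+VX680. Points are edgeR estimates and bars 95% intervals; the zero line marks no change. The intervals of 5 genes lie above 0 in all 3 comparisons, those of Lif are wide, and those of Il11 include 0.

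Levels per kilobase of gene length allow the 10 genes to be ordered. With 5azadC+VX680 the order was Csf1 (162 ± 7.91 CPM per kb, SD, n = 2), Hbegf (34.5 ± 2.67), Il1rl1 (26.4 ± 0.322), Ereg (5.06 ± 0.0763), Lif (2.56 ± 0.611), Areg (1.21 ± 0.882), Il11 (0.865 ± 0.316), Il6 (0.307 ± 0.0828), Il33 (0.273 ± 0.151) and Hgf (0.199 ± 0.143). Areg and Il11 overlapped between libraries, as did Il6, Il33 and Hgf. In untreated cells Csf1 (46.6 ± 1.45 CPM per kb) again came first, followed by Hbegf (2.14 ± 0.491), Ereg (1.43 ± 0.438), Il1rl1 (0.95 ± 0.107) and Il11 (0.339 ± 0.0508), with the other 5 genes at or below 0.237. Thus Il1rl1, below Ereg in untreated cells, was above it in each treated group, at 12.8 ± 5.33 CPM per kb with 5azadC and 23.5 ± 0.109 with VX680 where Ereg had 3.28 ± 0.0577 and 5.11 ± 0.203. With 5azadC, Il1rl1 and Hbegf (12.6 ± 0.432) did not differ beyond the spread of Il1rl1. In untreated libraries Il11 and Hgf overlapped per kilobase. Without division by length, Ereg ranked above Hbegf and Hgf above Il11 in untreated cells.

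The drugs differed from each other for 3 of the 6 genes. With 5azadC, Hbegf was 0.573-fold (interval 0.472 to 0.696), Il1rl1 0.551-fold (0.417 to 0.726) and Ereg 0.642-fold (0.475 to 0.867) of the level with VX680, with edgeR adjusted p of 0.000919, 0.0065 and 0.0462. Over all tested genes, 6.47% were lower and 9.33% higher with 5azadC than with VX680. Lif, Il11 and Csf1 did not pass the test, and their log2 differences had intervals of -0.58 to 1.20, -1.95 to 0.70 and -0.07 to 0.49. The call for Ereg is lost without any 1 of the 6 treated libraries, with edgeR adjusted p of up to 0.233, and in DESeq2 (adjusted p = 0.0732). That for Il1rl1 is lost without either VX680 library (edgeR adjusted p = 0.0566 and 0.0507) and with only the 4 libraries compared (0.052).

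Adding VX680 to 5azadC raised 3 of the 6 genes beyond 5azadC alone, where 9.98% of all tested genes were higher and 14.8% lower. These were Hbegf (log2 1.45 ± 0.13, edgeR adjusted p = 4.63e-06), Il1rl1 (1.03 ± 0.19, 0.0013) and Ereg (0.63 ± 0.20, 0.0385). The value of Il1rl1 is 1.54 without the higher 5azadC library, replicate 1, and 0.68 without the lower, and both pass. The call for Ereg is lost without any 1 of the 6 treated libraries, with edgeR adjusted p between 0.0523 and 0.16, and in DESeq2 (adjusted p = 0.061). Csf1 was 0.37 higher (interval 0.09 to 0.65) and just missed the threshold (edgeR adjusted p = 0.0544); it passed with 0.66 without 5azadC replicate 1 (1.9e-05), and in DESeq2 (adjusted p = 0.026), limma (0.0157) and edgeR with other size factors (0.0487), library totals (0.0191), a replicate block (0.0354) or no filter on low counts (0.00149). Lif was 0.82 higher (-0.03 to 1.67, edgeR adjusted p = 0.148) and passed without that same library, with 1.29 (0.0452).

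Adding 5azadC to VX680 changed less. Only Hbegf and Csf1 were higher with 5azadC+VX680 than with VX680 alone, by log2 0.64 ± 0.12 (edgeR adjusted p = 0.00725) and 0.58 ± 0.13 (0.0191), against 2.45% of all tested genes higher and 4.05% lower. Both calls are lost when any 1 of the 4 VX680 and 5azadC+VX680 libraries is left out (edgeR adjusted p between 0.0553 and 0.174), although the values then stay within 0.53 to 0.72. Over all tested genes, 29 to 43 are then called higher, against 310 with all libraries. Lif was 1.13 higher with an interval of 0.27 to 1.99 (edgeR adjusted p = 0.122) and passed without either 5azadC library (0.0388 and 0.0339), with only the 4 libraries compared (0.00584) and with no filter on low counts (0.0089). For Il1rl1 the difference was 0.17 (-0.22 to 0.56) and for Ereg -0.01 (-0.44 to 0.41), so that a further rise of more than 0.56 lay outside both intervals.

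Whether the effect of one drug differed in the presence of the other was tested as an interaction on the log2 scale, which is 0 when the combined log2 change equals the sum of the single ones. It was negative for 5 of the 6 genes, where 10.6% of all tested genes were called lower and 4.95% higher. The value was -3.61 ± 0.34 for Il1rl1 (edgeR adjusted p = 1.07e-05), -1.88 ± 0.22 for Hbegf (6.5e-05), -2.77 ± 0.86 for Lif (0.0261), -1.25 ± 0.30 for Ereg (0.0132) and -0.85 ± 0.19 for Csf1 (0.00809), while Il11 had 0.16 ± 0.88 (0.936). In each of the 5 the 2 drugs together thus raised the gene by less than the product of their single folds. The calls for Il1rl1 and Hbegf held without any 1 library. The value of Lif was -7.42 without untreated replicate 1 and -2.05 without untreated replicate 2, and that of Csf1 -0.56 without 5azadC replicate 1. Lif lost its call without untreated replicate 2, 5azadC replicate 1, or either library of VX680 or 5azadC+VX680 (edgeR adjusted p up to 0.0898), Ereg without untreated replicate 1 or any of those last 4 (up to 0.0776), and Csf1 without 5azadC+VX680 replicate 2 (0.0521).

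On the linear scale, a description chosen after the values were seen, the mean with 5azadC+VX680 was set beside the untreated mean plus the CPM increases of both single drugs. For Hbegf this sum was 77.1 CPM and the observed mean 81.6 CPM, a ratio of 1.06, and for Lif 10.3 and 10.5 CPM, a ratio of 1.01. Csf1 reached 0.867 of its sum, Il1rl1 0.748 and Ereg 0.726. The 20.9 CPM of Ereg with 5azadC+VX680 lay within the range of the VX680 libraries. The order of the genes by this ratio differs from that by the interaction.

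**Figure D3:**
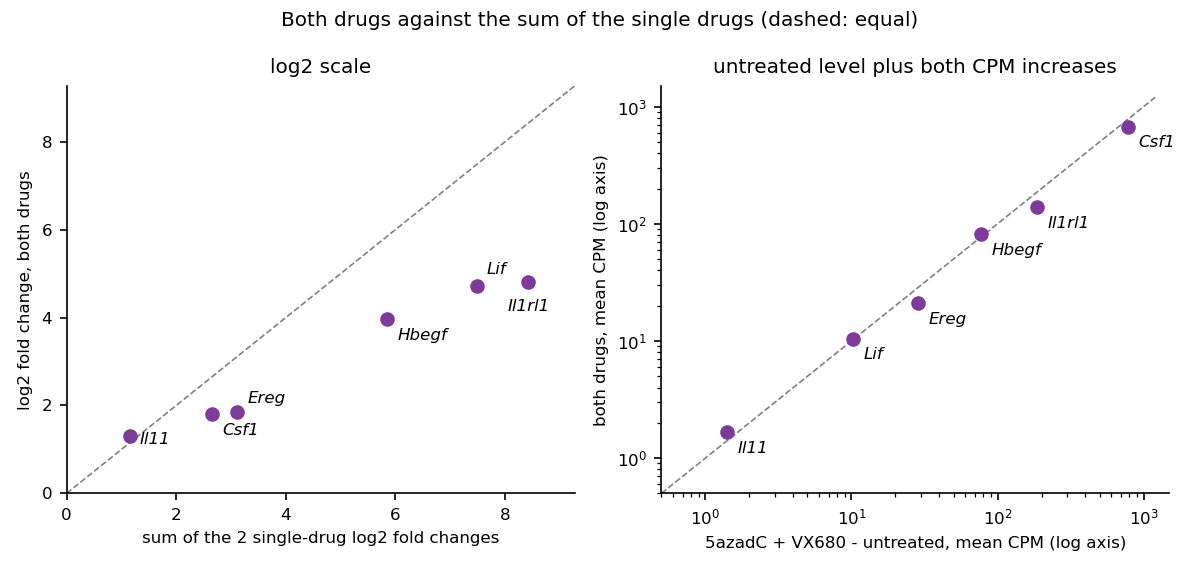
The 5azadC+VX680 group against the sum of the single drugs for the 6 tested genes. Left, log2 fold changes against untreated cells, where Il11 alone lies near the dashed line of equality and the others lie under it; right, mean CPM on log axes, where the sum is the untreated mean plus the increases with each drug, and Lif and Hbegf lie near the line and Il1rl1, Ereg and Csf1 under it.

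Reads that cover a variant show which allele was used. Il1rl1, Ereg and Hbegf had enough allelic reads for a test (10 or more in the average library), and none of the 3 changed its mus to cas ratio with any treatment by the edgeR test (adjusted p under 0.05); among all 10301 genes tested, 0.282% did with 5azadC, 0.379% with VX680 and 0.515% with 5azadC+VX680. At an unadjusted p under 0.05 by the same test only Ereg stood out, with 5azadC (edgeR adjusted p = 0.481) and with 5azadC+VX680 (edgeR adjusted p = 0.404). Its mus share was 42.9% and 41.2% in the 5azadC libraries, 29.8% and 26.8% with VX680 and 36.7% and 42.6% with 5azadC+VX680, against 18.5% and 15.4% in untreated cells. Treated and untreated shares did not overlap, but the untreated value rests on 9 mus reads among 53 (17.0%, Clopper-Pearson 95% interval 8.07% to 29.8%). The log2 change of the ratio was 1.80 ± 0.63 with 5azadC, 0.92 ± 0.62 with VX680 and 1.65 ± 0.62 with 5azadC+VX680, and it fails the correction over all genes. In the authors' deposited table the mus reads of Ereg rose by log2 2.52 and the cas reads by 0.69 with 5azadC, with false discovery rates of 0.00463 and 0.322. By the same authors' deposited table both alleles rose with VX680, by 2.70 (mus) and 1.75 (cas), and with 5azadC+VX680, by 3.15 and 1.5, with false discovery rates of 0.000756 or lower.

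Il1rl1 and Hbegf used both alleles in all groups. Over each group's reads Il1rl1 had a mus share of 34.0% with 5azadC, 34.2% with VX680 and 30.9% with 5azadC+VX680, against 43.2% of 44 reads in untreated cells. Hbegf had 39.1%, 35.7% and 39.2% in the same 3 groups, against 36.4% in untreated cells, where the libraries had 45.5% of 33 reads and 9.09% of 11. In the authors' deposited table both alleles of both genes rose with every treatment, the mus and cas reads of Il1rl1 by log2 4.35 and 5.24 with 5azadC+VX680 and those of Hbegf by 4.44 and 3.94. Lif was under the minimum for a test, with a mean of 9.75 allelic reads per library. Of its 78 allelic reads, all from treated libraries, 6 were mus (7.69%, interval 2.88% to 16%), and 4 of the 6 came from VX680 replicate 1. Csf1 had 9 allelic reads among 29835, too few to divide between alleles.

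**Figure D4:**
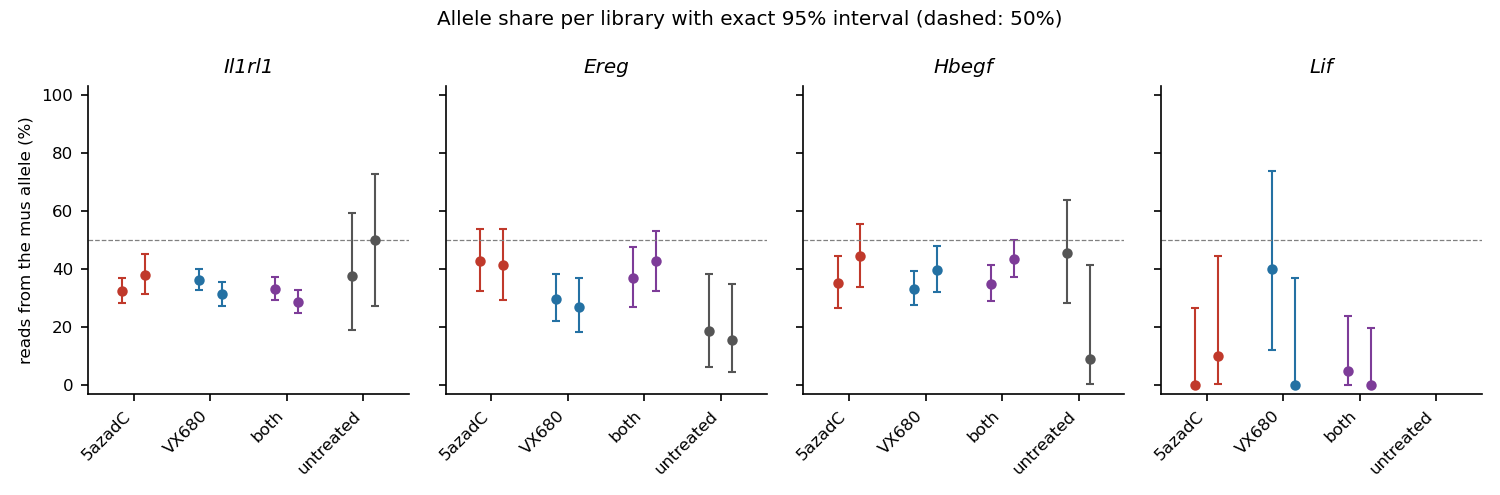
Share of allelic reads from the mus allele (%) per library for Il1rl1, Ereg, Hbegf and Lif. Points are libraries, bars exact 95% intervals and the dashed line 50%; "both" is 5azadC+VX680. The untreated shares of Ereg lie under those of all treated libraries, and the untreated libraries of Lif had no allelic reads.

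Genes around these ligands and the receptor ST2 were read from lists. The lists were chosen, like the 10 genes, with earlier results of these data known, so their counts are descriptions. Of 12 receptors and signalling genes of the gp130 pathway, 3 rose and 2 fell with 5azadC, 4 rose and 3 fell with VX680, and 5 rose and 4 fell with 5azadC+VX680. Over all tested genes 22.6%, 23.8% and 28.4% rose and 19.6%, 22.4% and 27.3% fell in the same 3 comparisons, and against these shares the counts of this and the following lists are to be read. Those of the gp130 list lie close to them. Il6ra, the private receptor of IL-6, rose by log2 1.67, 1.56 and 1.94 in that order, and Il11ra1, the private receptor of IL-11, fell, with -1.19, -1.94 and -2.38. Il6st, which encodes gp130 itself, fell, with -0.42, -0.46 and -1.12, yet stayed at 205 and 235 CPM in the 5azadC+VX680 libraries, against 489 and 466 CPM in untreated cells. Socs3, the feedback inhibitor induced by STAT3, rose by 0.42 with 5azadC (edgeR adjusted p = 0.0149) and had 0.15 and 0.23 in the other treatments (0.347 and 0.138). Lifr, a receptor gene of LIF, had 60.3 and 101 CPM with 5azadC, 99.7 and 105 with VX680 and 61.2 and 56.4 with 5azadC+VX680. In untreated cells Lifr had 105 and 89.7 CPM, so the libraries of each single drug overlapped the untreated ones. Thus the receptor genes of the 3 cytokines did not move in 1 direction.

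Of 8 tested receptors and adaptors of the IL-1 family, 3 rose and none fell with 5azadC, 2 rose and 1 fell with VX680, and 2 rose and 3 fell with 5azadC+VX680. Irak2, a kinase of the MyD88 complex, rose by log2 0.99, 1.40 and 1.37. Il1rap, which pairs with ST2 to bind IL-33, had -0.06 and -0.14 with the single drugs and fell by 0.47 with 5azadC+VX680. Of 13 NF-kB subunits and inhibitors, 8 rose and 1 fell with each single drug, and 9 rose and 1 fell with 5azadC+VX680. Tnfaip3, which encodes the inhibitor A20, rose most, by 1.96, 2.44 and 3.18. The subunit gene Nfkb2 rose by 0.48, 0.84 and 1.12, and Nfkb1 was the member that fell, with -0.37, -0.51 and -0.46.

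Among 12 AP-1 and C/EBP factors, which bind the promoters of many cytokine genes, 11 rose with each treatment; none fell with 5azadC and 1, Fos, with VX680 and with 5azadC+VX680. The median log2 change was 1.05, 1.21 and 1.47. Fosl1, which encodes FRA-1, had 107 and 66.1 CPM with 5azadC, 107 and 104 CPM with VX680 and 166 and 142 CPM with 5azadC+VX680, against 6.44 and 8.79 CPM in untreated cells, changes of log2 3.55, 3.83 and 4.38. Atf3, a stress-induced factor, rose by 2.81, 3.37 and 3.41, and Maff by 1.57, 4.09 and 4.00. Of 10 factors that control cytokine mRNA decay, 3 rose and 3 fell with 5azadC, 2 rose and 3 fell with VX680, and 3 rose and 3 fell with 5azadC+VX680. Zfp36, which encodes TTP, rose by 0.59 with 5azadC and fell with VX680 (-0.63) and with 5azadC+VX680 (-0.77). Its relative Zfp36l1 fell, with -0.50, -1.25 and -1.76, and Zc3h12a, which encodes the RNase Regnase-1, rose by 1.06, 0.93 and 1.38. Another relative, Zfp36l2, did not fall, with 958 and 742 CPM with 5azadC against 393 and 452 in untreated cells. Its libraries with VX680 (506 and 420 CPM) and with 5azadC+VX680 (524 and 435 CPM) overlapped the untreated ones.

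On the EGF side, Ereg and Hbegf rose, as given above, while Egfr, the main receptor of all 3 ligands, did not pass the test, with log2 changes of 0.24, -0.13 and 0.40 (edgeR adjusted p = 0.266, 0.566 and 0.0556). Of the 3 tested receptors, Erbb3 rose in each treatment and Erbb2 fell. The remaining tested EGF family ligand, Nrg1, fell, with -0.50 for 5azadC, -1.64 for VX680 and -1.93 for 5azadC+VX680, and 7 others were under the filter. Of 8 genes for the shedding of EGF ligands, 3 rose and 3 fell with 5azadC, 4 rose and 3 fell with VX680, and 3 rose and 4 fell with 5azadC+VX680. Adam8 rose by 2.77, 2.50 and 3.03 and Rhbdf2, a partner of the protease ADAM17, by 1.81, 1.82 and 2.16, whereas Adam17 itself fell, with -0.47, -0.54 and -0.67.

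Of 12 feedback and target genes downstream of EGF receptors, 9 rose and 1 fell with 5azadC, 8 rose and 1 fell with VX680, and 8 rose and 2 fell with 5azadC+VX680. Etv4, a transcription factor gene induced by ERK signalling, rose by log2 2.89, 3.70 and 4.23, Dusp4, a phosphatase of ERK, by 1.96, 2.37 and 3.3, and Phlda1 by 1.85, 2.32 and 3.18. Egr1, an immediate early gene, fell with VX680 (-1.91) and 5azadC+VX680 (-2.04) and had 0.31 with 5azadC (edgeR adjusted p = 0.178). Of 9 tested genes for the receptor and the activation of HGF, 3 rose and 1 fell with each single drug, and 5 rose and 2 fell with 5azadC+VX680. Met did not pass the test, at log2 0.02, -0.24 and 0.03, and Plau, the protease urokinase, rose by 1.1, 1.13 and 1.18. St14, which encodes the HGF-cutting protease matriptase, had 3.23 and 4.8 CPM with 5azadC, 5.40 and 7.72 CPM with VX680 and 8.44 and 14.2 CPM with 5azadC+VX680, against 0 reads in both untreated libraries.

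**Figure D5:**
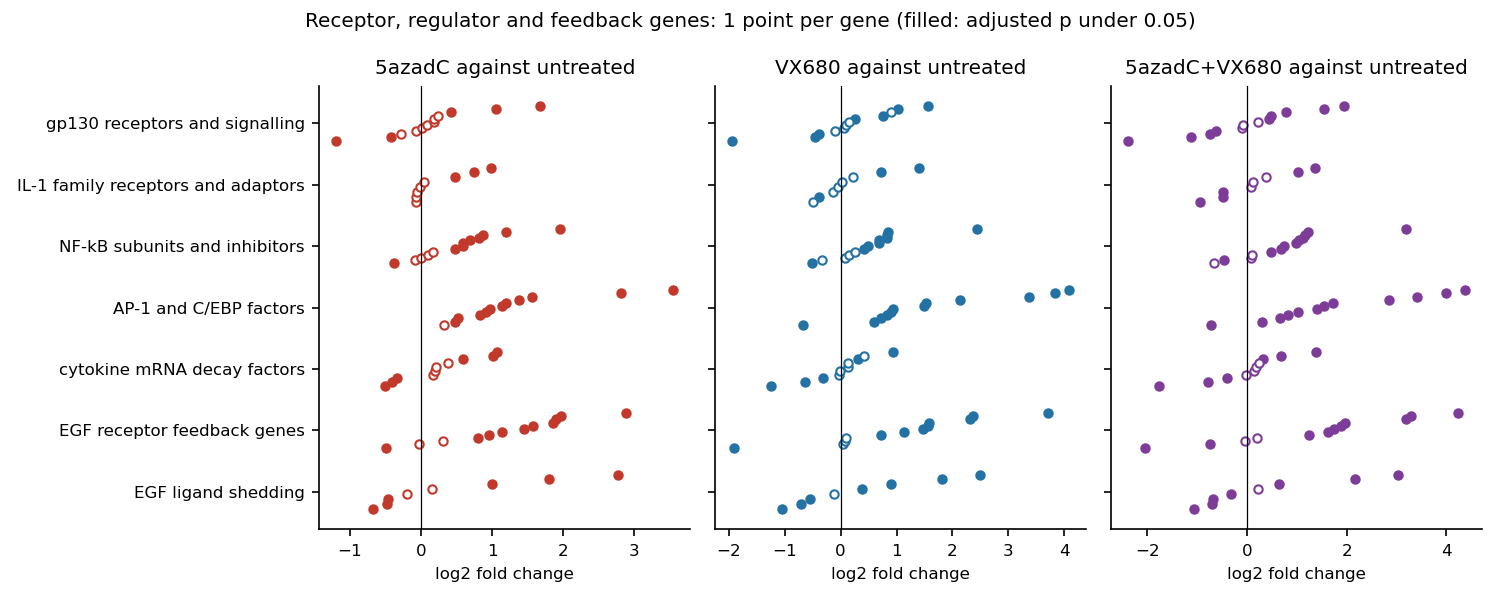
Log2 fold change against untreated cells (horizontal axis) of the genes in 7 of the lists, 1 point per gene, filled where the edgeR adjusted p is under 0.05. Panels are 5azadC, VX680 and 5azadC+VX680. The AP-1 and C/EBP factors and the EGF receptor feedback genes lie mostly right of 0, and the gp130 and shedding genes on both sides.

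Among each other, the 6 tested genes had Pearson correlations of log2 CPM over the 8 libraries between 0.66 (Il11 with Csf1) and 0.98 (Il1rl1 with Hbegf), which is a description of 4 groups of 2 libraries. Among tested genes whose mean log2 CPM was 1 or more, those most like each were Utp20 and Ddx56 for Lif (0.997 and 0.994), Dlat and Ubxn2a for Il11 (0.974 and 0.959), Cyc1 and Gnl1 for Csf1 (0.999 and 0.995), Fam129b and Klf6 for Il1rl1 (0.998 and 0.997), Dvl1 and Nudcd3 for Ereg (0.996 and 0.995) and Jag2 and Slc16a6 for Hbegf (0.997 and 0.997). With 4 groups such values are common: 713 genes had a correlation over 0.95 with Hbegf and 687 with Il1rl1, but 8 with Il11.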

How the data were processed

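RNA from 8 libraries, 2 in each of 4 groups taken from the sample labels, was made into strand-marked (dUTP) libraries, per the labels' protocols. The submitters' processing notes name TopHat2 2.0.10, HOMER 4.8, edgeR and the build mm9, without saying what each was used for. The deposited composite table holds raw counts per gene and, per the file headers, gene lengths in bases; a deposited allelic table holds counts of mus and cas reads. The deposited normalized composite signal equals those counts times 1 factor per library, between 1 and 1.614. The authors' deposited allelic tables give log2 fold changes, mean log2 CPM, p-values and false discovery rates.

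Counts were tested with edgeR 4.0.16 in R 4.3.3 (filterByExpr, TMM, 1 mean per group over all 8 libraries, quasi-likelihood F tests, Benjamini-Hochberg over 12643 genes, adjusted p under 0.05). Standard errors and intervals (95%) are those of the log2 fold change, computed from the fitted weights and the estimated spread. The p-values come from the F test instead, so an interval and its p-value need not match exactly. Allelic ratios were fitted with 1 coefficient for each library and 1 for the mus allele in each group, over the 10301 genes that averaged 10 or more allelic reads. Both fits were first run on simulated data with the same spread for every gene and group. The spread of these libraries differs between groups, so that run cannot vouch for the p-values here. Genes under the filter get ratios of summed reads with exact intervals, and 0 reads allow a level of up to 3 counts. Alternatives were DESeq2 1.42.0, limma 3.58.1 on log2 of the signal plus 1, other scalings and filters, a replicate block and leaving out each library. The labels do not say that a replicate number marks a shared culture or day, so the replicate numbers were not taken to pair libraries. Replicate differences of any 2 groups correlated between -0.0807 and 0.0397.

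Named genes are the 10 genes, up to 4 genes past the threshold of each list and comparison by size of change with mean log2 CPM of at least 1, the 2 most correlated genes for each tested one, and markers. Socs3, Lifr, Il1rap, Nfkb1, Nfkb2 with 5azadC, Il6st with VX680, Zfp36l2 with VX680 and 5azadC+VX680, Egfr, Met, Adam17, Fos and Csf1r were added for their roles or after their values were seen. The genes, lists and tests were chosen with earlier results of these data known. The reference annotation follows another build, so chromosomes are those in the tables and no coordinates are given. A result on 1 listed gene is not reported here.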

Additional observations from a re-analysis of the deposited data

Results flagged for a closer look

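The effect of one drug differed in the presence of the other for 5 of the 6 genes tested, by the edgeR test of the log2 interaction, where 10.6% of all tested genes were called lower and 4.95% higher. The values were -2.77 for Lif, -0.85 for Csf1, -3.61 for Il1rl1, -1.25 for Ereg and -1.88 for Hbegf, so that each combined change was smaller than the sum of the single log2 changes. With 1 library left out, 2 to 5 genes were called, since Lif, Ereg and Csf1 lose their calls without some libraries, and the value of Lif lay between -7.42 and -2.05. Summed fibroblast markers, most of which come from collagen genes in untreated cells, were at 11516 to 11739 CPM with 5azadC+VX680, against 31427 to 35495 CPM in untreated cells. Besides the collagens, Pdgfra, Pdgfrb, Dcn and Lum of that list were lower in both 5azadC+VX680 libraries than in both untreated ones. Vim, Thy1 and S100a4 were higher, and the part of all these markers in the interaction was not tested. The interaction depends on the log2 scale. On the linear scale, the combined mean was set beside the untreated mean plus both single CPM increases. It was 1.06 of that sum for Hbegf, 1.01 for Lif, 0.867 for Csf1, 0.748 for Il1rl1 and 0.726 for Ereg. The same untreated libraries enter the single changes and the interaction.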

How the results depend on the processing

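Against untreated cells, 5 genes were called for each treatment in all 17 alternatives. With libraries left out in turn, 0 to 3 genes were called for 5azadC+VX680 against VX680 (2 with all), 1 to 3 for 5azadC against VX680 (3 with all), 2 to 5 for the interaction (5 with all) and 2 to 4 for 5azadC+VX680 against 5azadC (3 with all). With a 2-fold minimum, 0 were called for 5azadC+VX680 and for 5azadC against VX680, and with only the 4 libraries compared, 1 for 5azadC against VX680. With the replicate block, Csf1 passed for 5azadC+VX680 against 5azadC (log2 0.38, edgeR adjusted p = 0.0354) and Ereg just failed for 5azadC against VX680 (-0.64, 0.05); it changed no other call of the 6 genes. Allelic ratios gave 0 calls among the tested genes in all 10 alternatives.

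Uncalled values that changed sign did so with 1 library left out: Il11 (5azadC against untreated, -0.013 to 0.51; 5azadC+VX680 against VX680, -0.0096 to 0.75; interaction, -0.28 to 0.48), Ereg (5azadC+VX680 against VX680, -0.057 to 0.024), Lif (5azadC against VX680, -0.16 to 0.64), Csf1 (5azadC against VX680, -0.077 to 0.45), and the allelic ratio of Hbegf (-0.36 to 2.56, -0.56 to 2.36 and -0.38 to 2.54 for 5azadC, VX680 and 5azadC+VX680). The ratio of Hbegf changed sign without untreated replicate 2, which has 11 allelic reads, and also without replicate 2 of the treated group. The cause was not tested.

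Counts over all genes moved more. The 310 higher and 512 lower for 5azadC+VX680 against VX680 became 924 and 1090 with only the 4 libraries and 514 and 785 with no filter. For 5azadC against VX680, 1180 higher and 818 lower became 782 and 1267 with library totals only, and 731 and 1230 with limma on the authors' signal. For 5azadC+VX680 against 5azadC, 1262 higher became 1944 with totals only. Those scalings shift the median of all genes by 0.10 to 0.12 in size. With a 2-fold minimum the counts for 5azadC, VX680 and 5azadC+VX680 against untreated were 1010, 1109 and 1568 higher and 731, 826 and 1336 lower. Depth limits Il6, Il33, Areg, Hgf and Il11, and the untreated values of Lif and of all allelic shares.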

Other observations

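Other interleukins and colony-stimulating factors moved in both directions. Tslp, an epithelial and fibroblast cytokine of type 2 inflammation, had 2.23 and 4.66 CPM with 5azadC, 12.5 and 12 CPM with VX680 and 11.4 and 12.6 CPM with 5azadC+VX680, against 1.09 and 0.586 CPM in untreated cells. Its log2 changes were 1.91, 3.77 and 3.73 (edgeR adjusted p = 0.00434, 5.67e-06 and 3.57e-06). Kitl, the ligand of the receptor KIT, fell (log2 -1.39, -1.92 and -2.24), with 98.7 and 106 CPM with 5azadC, 65.5 and 77.1 CPM with VX680 and 52.0 and 61.3 CPM with 5azadC+VX680, against 314 and 222 CPM in untreated cells. Of 15 other interleukins and colony-stimulating factors, 4 passed the filter on low counts.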
